A study of Xenopus laevis with 30 samples.

Results

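The genes described here are the nkx and LIM homeobox transcription factors of the Xenopus laevis tadpole brain, together with the Ldb cofactors that LIM factors bind. They were taken by name, as every row of the gene table that begins with nkx, lhx, isl1, isl2, lmx1a, lmx1b, ldb1 or ldb2 (with a digit after nkx and lhx). This gave 45 rows of 49109: 23 nkx, 13 lhx, 2 isl, 4 lmx1 and 3 ldb rows. The names were chosen with earlier results of these data known, so the shares of called rows below are descriptions. X. laevis is an allotetraploid frog, and a gene can be kept in a copy on the longer (.L) and a copy on the shorter (.S) member of a chromosome pair. The 45 rows stand for 29 gene symbols, of which 16 have both copies in the table and 13 have 1 copy.

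RNA was sequenced from dissected brain regions of albino tadpoles of both sexes, staged after Nieuwkoop and Faber (NF), and no treatment is given for any sample. At stage 46 there were 3 samples each of forebrain (its subcortical part), midbrain, hindbrain (with the rhombic lip) and spinal cord, and at stage 49 there were 2 samples of each region. The midbrain was also sampled at stages 44, 55 and 61 (3 samples each) and at stage 66 (1 sample), which gives 30 samples in all. The study's methods call its samples biological replicates but describe groups of 3 only, not the stage 49 groups or the stage 66 sample. The number of animals in a sample is not given in the sources used here, so the p-values below measure the spread between these samples, which may be technical. Levels are given as CPM, the usual depth-scaled read count, after TMM scaling of all 30 libraries together, always in the order of replicates 1, 2 and 3. They are compared between samples for a gene and not between genes, since gene length was not taken into account. These are pieces of tissue, so fewer cells of a type and less RNA per cell cannot be told apart.

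Nkx factors are homeodomain proteins that divide the ventral neural tube into progenitor domains, several of them in response to Sonic hedgehog secreted by the notochord and the floor plate. LIM homeodomain factors act mostly later, in neurons that have left the cell cycle, where combinations of lhx, isl and lmx1 genes distinguish classes of motor neurons and interneurons. Their LIM domains bind Ldb proteins, which join LIM factors into larger complexes. Most of these roles are known from mouse and chick, and the names below carry over to the frog by homology only.

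A few libraries stood apart from the rest and touch many of the values below. Among 7289 genes with 2 or fewer counts over the 12 midbrain samples of stages 44, 46, 55 and 61, the share of a library's counts was 0.541% to 0.719% in replicate 3 of forebrain, hindbrain and spinal cord at stage 46, against 0.101% or less in the other 9 libraries of that stage. At stage 49 it was 0.904% to 1.87% in 7 libraries and 0.0635% in midbrain replicate 1. In the midbrain samples of stage 46 the share is low by the choice of genes. Genes with reads were therefore also counted after random thinning to the smallest library. They numbered 42827 to 44131 in the 3 libraries of stage 46 and 27915 to 31803 in the other 9. At stage 49 they numbered 44814 to 46638 in the 7 libraries and 32644 in midbrain replicate 1. The same libraries had reads on rows that were otherwise near 0: 11 rows of nkx2-3, nkx2-5, nkx2-6 and nkx3 genes, which are best known from heart, gut, pharynx and skeleton, summed to 14.4 CPM or more in each of those 3 libraries of stage 46, to 22.4 to 38.3 CPM in those 7 libraries of stage 49, and to 3.41 CPM or less in the other libraries of both stages. All 11 of these rows had reads in each of the 3 libraries of stage 46. Among the other libraries the highest value of any of the 11 rows was 3.03 CPM, for nkx2-3.S in forebrain replicate 2 of stage 46. Some of the 11 rows, such as nkx2-6.L, are themselves among the 7289 genes, so the sum and the share are not independent. Counts per library ranged from 1762544 to 11016124, with the stage 49 libraries between 1762544 and 7428758. Rows called at stage 46 are counted and named with and without the 3 libraries. Values without them are given for some of the rows where the call changed.

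**Figure D1:**
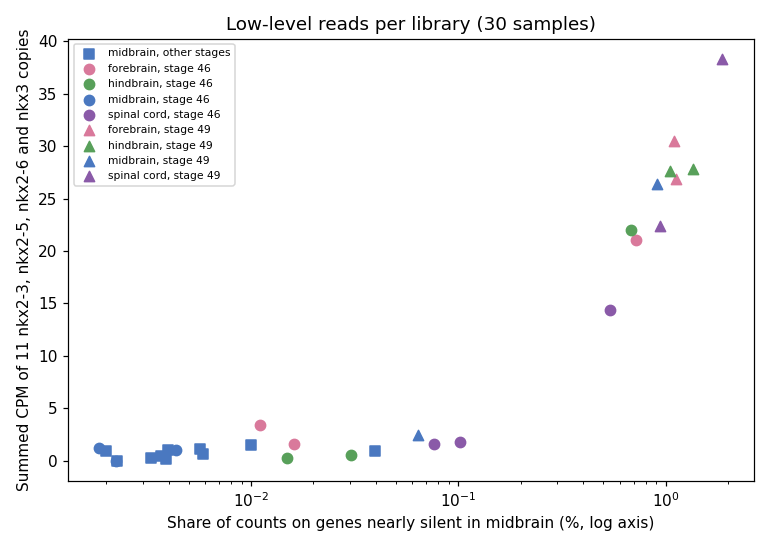
Each point is 1 of the 30 libraries. The x axis (log scale) gives the percent of its counts on 7289 genes nearly silent in the midbrain samples, a share that is low in those samples by the choice of genes, and the y axis the summed CPM of 11 nkx2-3, nkx2-5, nkx2-6 and nkx3 rows. The 3 libraries of stage 46 and the 7 of stage 49 lie at 14.4 CPM or higher, and all others lie at 3.41 CPM or lower. Some of the 11 rows are among the 7289 genes, so the axes are not independent.

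The region labels were compared with sums over marker lists. Forebrain markers (9 rows, such as dlx5 and six3) summed to 314 to 624 CPM in the stage 46 forebrain, 125 to 132 CPM in the midbrain and at most 24.6 CPM in hindbrain and spinal cord. Midbrain markers (10 rows) were highest in the midbrain, at 525 to 667 CPM, and caudal hox genes (13 rows) in the spinal cord, at 242 to 432 CPM against 30.9 CPM or less elsewhere. Hindbrain markers (8 rows, such as egr2 and hoxb2) were at 142 to 207 CPM in the hindbrain and higher in the spinal cord, at 207 to 381 CPM. The spinal cord samples of stage 46 also held markers of cartilage (7 rows, 1945 to 2365 CPM, against 485 CPM or less in the other regions) and of sensory ganglia and neural crest (10 rows, 1533 to 2203 CPM, against 843 CPM or less), of notochord (6 rows, 696 to 1122 CPM, against 168 CPM or less) and of skeletal muscle (15 rows, 302 to 776 CPM, against 409 CPM or less), and the midbrain samples held pituitary markers (14 rows, 260 to 395 CPM, against 28.3 CPM or less). None of the rows of the cartilage, sensory, notochord and muscle lists was at 0 in the spinal cord, or in any other region of stage 46. Of the 14 pituitary rows, 2 were at 0 in the midbrain, where their sum was highest, and none in the other regions. Each of those other regions held a library with reads on otherwise silent genes. Counts of rows at 0 therefore do not show which tissues the samples held. At stage 49 the sums of region markers lay closer together. Caudal hox genes were at 123 to 128 CPM in the spinal cord, 49.1 to 49.7 CPM in the hindbrain and 51.0 to 51.5 CPM in the forebrain. Forebrain markers were at 182 to 188 CPM in the forebrain and 20.7 to 46.8 CPM in the spinal cord. Midbrain markers were at 216 to 371 CPM in the midbrain and 128 to 141 CPM in the hindbrain.

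**Figure D2:**
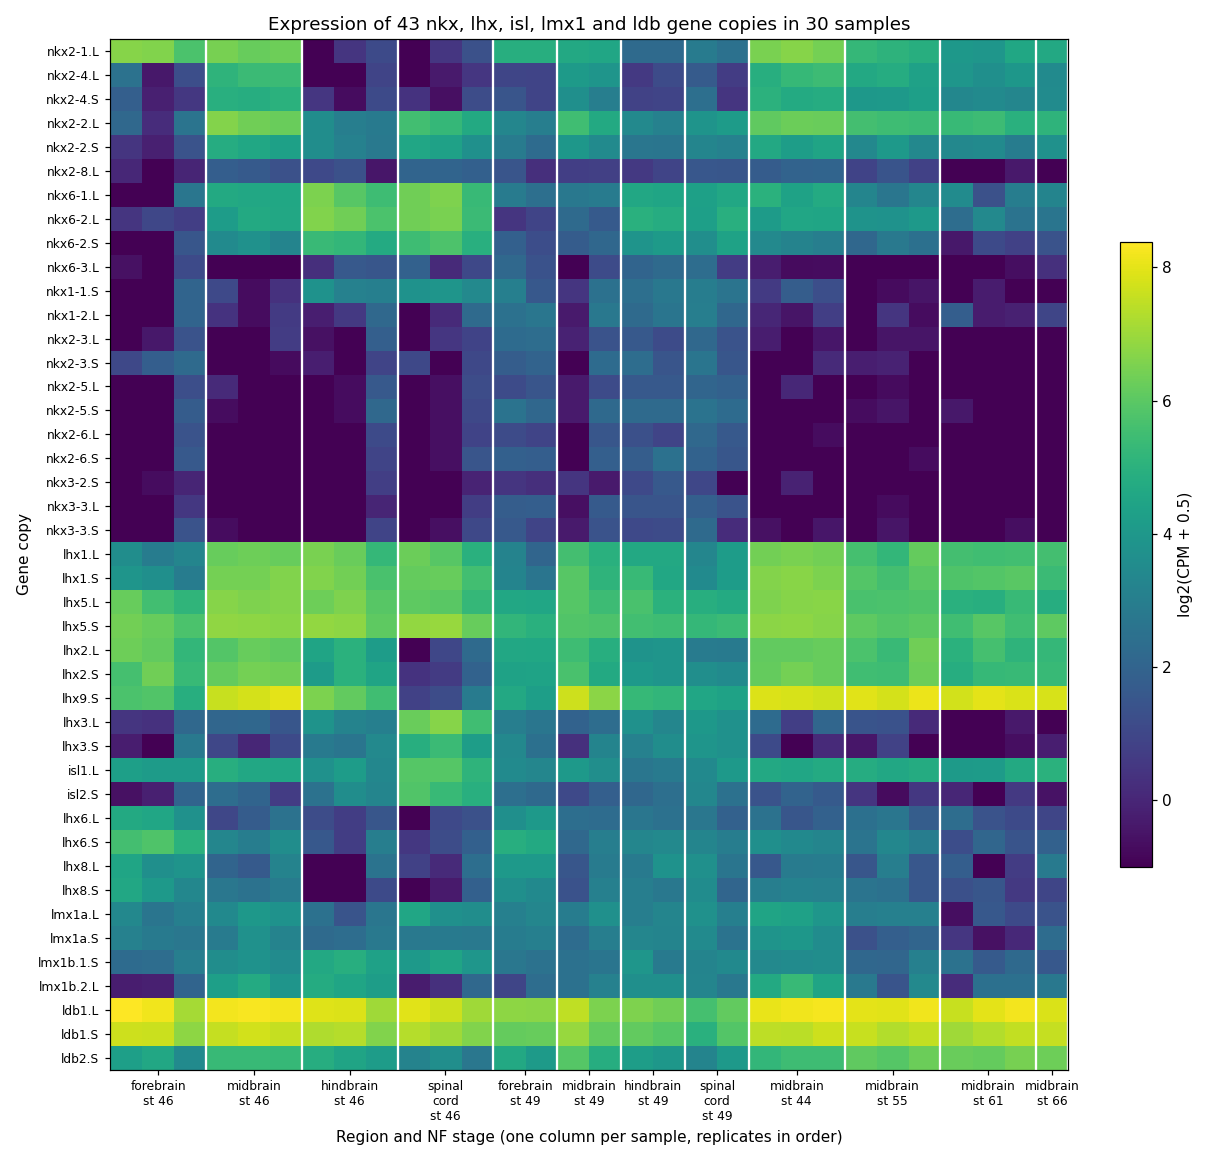
Colour gives log2(CPM + 0.5) of 43 of the 45 rows (y axis) in each of the 30 samples (x axis, grouped by region and stage, replicates in order). Most lhx rows and the nkx2-1, nkx2-2, nkx2-4 and nkx6 rows differ between regions. The nkx2-3, nkx2-5, nkx2-6 and nkx3 rows are at 3.03 CPM or lower outside the 10 libraries with reads on otherwise silent genes. The highest of these values is that of nkx2-3.S in forebrain replicate 2 of stage 46.

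To ask how these genes differ along the axis of the brain, the 4 regions were compared in 6 pairs at stage 46. A gene counted as called when edgeR's quasi-likelihood test gave it a Benjamini-Hochberg adjusted p below 0.05, over all genes tested, and a log2 fold change of more than 2 in either direction. Differences below are log2 fold changes with their standard errors (SE), always the more caudal region minus the more rostral one, or the later stage minus the earlier. Of the 42 rows that passed the filter on low counts, 21 were called in at least 1 pair, which is 50% beside 5.62% of all 34485 genes tested. In 14 of them a call was toward the more caudal region (3.88% of all genes) and in 11 toward the more rostral one (2.19% of all genes), with some called both ways in different pairs. By pair, 10 rows were called between midbrain and forebrain (0.916% of all genes), 12 between hindbrain and forebrain (1.28%), 15 between spinal cord and forebrain (3.36%), 4 between hindbrain and midbrain (0.821%), 13 between spinal cord and midbrain (3.84%) and 6 between spinal cord and hindbrain (1.07%). The median log2 fold change of all genes lay between -0.18 and 0.26 over the 6 pairs. Without the 3 libraries, 27 of 34 rows tested were called (12.6% of all 27407 genes), among them 20 of the 21. The row lost was ldb2.S, and the rows gained were lhx8.L, lhx8.S, lmx1a.L, nkx1-1.S, nkx2-3.S, nkx2-8.L and nkx6-3.L. Of these, nkx2-3.S had 9 and 24 counts in forebrain replicates 1 and 2, 2 and 0 in the hindbrain and 10 and 0 in the spinal cord. It had 0, 0 and 1 in the 3 midbrain samples. The filter keeps a row that is high in 1 region only, so the shares above are counts over the rows that passed it, not over all 45, of which 3 did not pass.

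Of the 30 rows whose highest regional mean at stage 46 was at least 10 CPM, that mean was in the forebrain for 5, in the midbrain for 14, in the hindbrain for 3 and in the spinal cord for 8. Only the midbrain held no library that stood apart. In the other regions all 45 rows summed to 696 to 826 CPM in replicate 3 and 1099 to 1316 CPM in replicates 1 and 2. Some of the 14 depend on this. For lhx5.S, spinal cord replicates 1 and 2 (115 and 122 CPM) lay above every midbrain value (105 to 114 CPM), and replicate 3 (72.2 CPM) below. Replicate 1 also lay above every midbrain value, and replicate 3 below, for ldb1.L and lhx2.L in the forebrain. The same held for lhx1.L and lhx1.S in the hindbrain. The same count over all genes was not made. At stage 49, 28 of the 30 had their highest mean in the same region, the exceptions being isl1.L and nkx6-1.L. There too the midbrain held a library unlike the others. All 45 rows summed to 1072 CPM in midbrain replicate 1 and to 494 to 735 CPM in the other libraries of that stage. The 28 also include uncalled rows such as ldb1.L and lhx5.S, so this number is a description and not an independent check of the regions. The values of the rows called at either stage follow, by the role of the gene.

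The nkx2-1 gene is needed for the hypothalamus and for the ventral telencephalon in mouse, where it stands upstream of lhx6 and lhx8. In X. laevis nkx2-1.L was at 103, 97.5 and 52.9 CPM in the stage 46 forebrain and 86.7, 73.8 and 78.3 CPM in the midbrain. It was at 0, 0.866 and 1.66 CPM in the hindbrain and 0, 0.887 and 2.02 CPM in the spinal cord. Both rostral regions thus lay far above both caudal ones, with no overlap, while forebrain and midbrain overlapped each other. The log2 fold change from forebrain to hindbrain was -6.71 ± 0.66 (SE), edgeR adjusted p = 4.80e-05, and from midbrain to spinal cord -6.42 ± 0.65 (SE), edgeR adjusted p = 2.17e-05. Without the 3 libraries these were -7.59 and -7.41. The midbrain samples also held forebrain markers (125 to 132 CPM) and pituitary markers (260 to 395 CPM). In hindbrain and spinal cord these sums were at most 24.6 and 28.3 CPM. The part of forebrain or pituitary tissue in the midbrain values of nkx2-1.L was not tested.

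Its relative nkx2-4, a hypothalamic gene in mouse, was high in the midbrain only. There nkx2-4.L was at 33.9, 41.9 and 41.3 CPM and nkx2-4.S at 29.4, 28.6 and 31 CPM. In the forebrain the values were 5.37, 0.253 and 1.89 CPM for nkx2-4.L and 3.12, 0.379 and 0.945 CPM for nkx2-4.S. No value of either copy in hindbrain or spinal cord was above 1.79 CPM, so the midbrain stood apart from the other 3 regions. From forebrain to midbrain nkx2-4.S rose by a log2 fold change of 4.25 ± 0.81 (SE), edgeR adjusted p = 0.0103. For nkx2-4.L that difference was 3.90 ± 1.02 (SE), edgeR adjusted p = 0.0963, and it was called without the 3 libraries (3.87, edgeR adjusted p = 0.00993). From midbrain to hindbrain both copies fell, with log2 fold changes of -6.57 for nkx2-4.L and -5.06 for nkx2-4.S (edgeR adjusted p = 0.0332 and 0.00636); 7 of 19 other settings lost the call for nkx2-4.L and 1 that for nkx2-4.S. The pituitary markers given above were also high in the midbrain samples only, at stage 49 too (602 to 929 CPM, against 49.9 CPM or less in the other regions), and the part of tissue under the brain in the nkx2-4 values was not tested.

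Among the genes of the most ventral progenitors, nkx2-2 marks the domain next to the floor plate, and it also takes part in the making of oligodendrocytes in mouse. The copy nkx2-2.L was at 99.2, 80.2 and 74.8 CPM in the midbrain and 46.4, 37.3 and 25.8 CPM in the spinal cord. It was at 11.5, 7.55 and 6.63 CPM in the hindbrain and 3.98, 0.632 and 5.67 CPM in the forebrain. These 4 groups did not overlap one another. The other copy, nkx2-2.S, was at 27.2, 23.6 and 19.5 CPM in the midbrain, 23.1, 20.1 and 12.6 CPM in the spinal cord, 11.7, 8.17 and 6.39 CPM in the hindbrain and 0.865, 0.379 and 2.13 CPM in the forebrain, where only the midbrain and the spinal cord overlapped. From forebrain to midbrain the log2 fold change of nkx2-2.L was 4.61 ± 0.50 (SE), edgeR adjusted p = 1.03e-04, and that of nkx2-2.S was 4.39 ± 0.47 (SE), edgeR adjusted p = 2.78e-05. The drop from midbrain to hindbrain was called for nkx2-2.L (-3.22, SE 0.45, edgeR adjusted p = 0.0013) and not for nkx2-2.S (-1.34, SE 0.37, edgeR adjusted p = 0.0947). Its relative nkx2-8.L stayed at 3.59 CPM or lower in every sample of stage 46.

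The balance of the nkx2-2 copies is given as a ratio, for which gene length cancels between samples. The log2 ratio of nkx2-2.L to nkx2-2.S was 1.85 ± 0.09 (SD, n = 3) in the stage 46 midbrain, 0.97 ± 0.08 (SD, n = 3) in the spinal cord and -0.03 ± 0.08 (SD, n = 3) in the hindbrain. Over midbrain stages 44, 46, 55 and 61 the mean ratio stayed between 1.78 and 2.01. In the 2 samples of each region at stage 49 it was 1.41 ± 0.24 (SD) in the midbrain, 0.85 ± 0.33 in the spinal cord and 0.65 ± 0.17 in the hindbrain. These ratios were not tested, and how reads that fit both copies were counted is not stated.

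The nkx6 genes are class II progenitor genes of the ventral hindbrain and spinal cord, where in mouse they are needed for motor neurons. All 3 called rows were lowest in the forebrain and highest in hindbrain and spinal cord. At stage 46 nkx6-1.L had 0, 0 and 5.9 CPM in the forebrain and 25.8, 24.4 and 23.8 CPM in the midbrain. It had 91.1, 60.9 and 43.6 CPM in the hindbrain and 81.3, 95.4 and 39.2 CPM in the spinal cord, all above every midbrain value. The forebrain value of 5.90 CPM is from 1 of the 3 libraries described above, and the other 2 forebrain libraries had no count. The log2 fold change from forebrain to hindbrain was 5.29 ± 1.03 (SE), edgeR adjusted p = 0.0216. That call was lost in 7 of 19 other settings, mostly fits with 1 library fewer, while the call from forebrain to spinal cord (5.40) was kept in all 19. Counted against a floor of 3 reads over the 2 remaining forebrain libraries, nkx6-1.L was at least 334-fold higher in the hindbrain, at least 404-fold higher in the spinal cord and at least 113-fold higher in the midbrain.

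The paralog nkx6-2.L was at 0.865, 1.52 and 1.18 CPM in the forebrain and 17.9, 25.6 and 24.4 CPM in the midbrain. Its values were 97.1, 81.7 and 52.1 CPM in the hindbrain and 80.0, 88.9 and 41 CPM in the spinal cord, so that only the last pair of regions overlapped. The log2 fold change from forebrain to hindbrain was 5.96 ± 0.37 (SE), edgeR adjusted p = 8.56e-08, and from midbrain to hindbrain 1.84 ± 0.27 (SE), edgeR adjusted p = 9.59e-04, the latter below the fold threshold. The copy nkx6-2.S was also lowest in the forebrain and next in the midbrain, but had its highest mean in the spinal cord and not the hindbrain, with 0, 0 and 2.36 CPM in the forebrain, 10.9, 12.9 and 8.98 CPM in the midbrain, 40.3, 36.3 and 26.1 CPM in the hindbrain and 43.8, 54 and 30.1 CPM in the spinal cord. From forebrain to spinal cord it changed by 6.06 ± 0.76 (SE), edgeR adjusted p = 1.85e-04, and by at least 224-fold when the 3 libraries were left out, since replicates 1 and 2 of the forebrain had no count. From midbrain to spinal cord its log2 fold change of 2.02 (edgeR adjusted p = 0.0273) lay at the threshold, and 12 of 19 other settings lost that call.

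**Figure D3:**
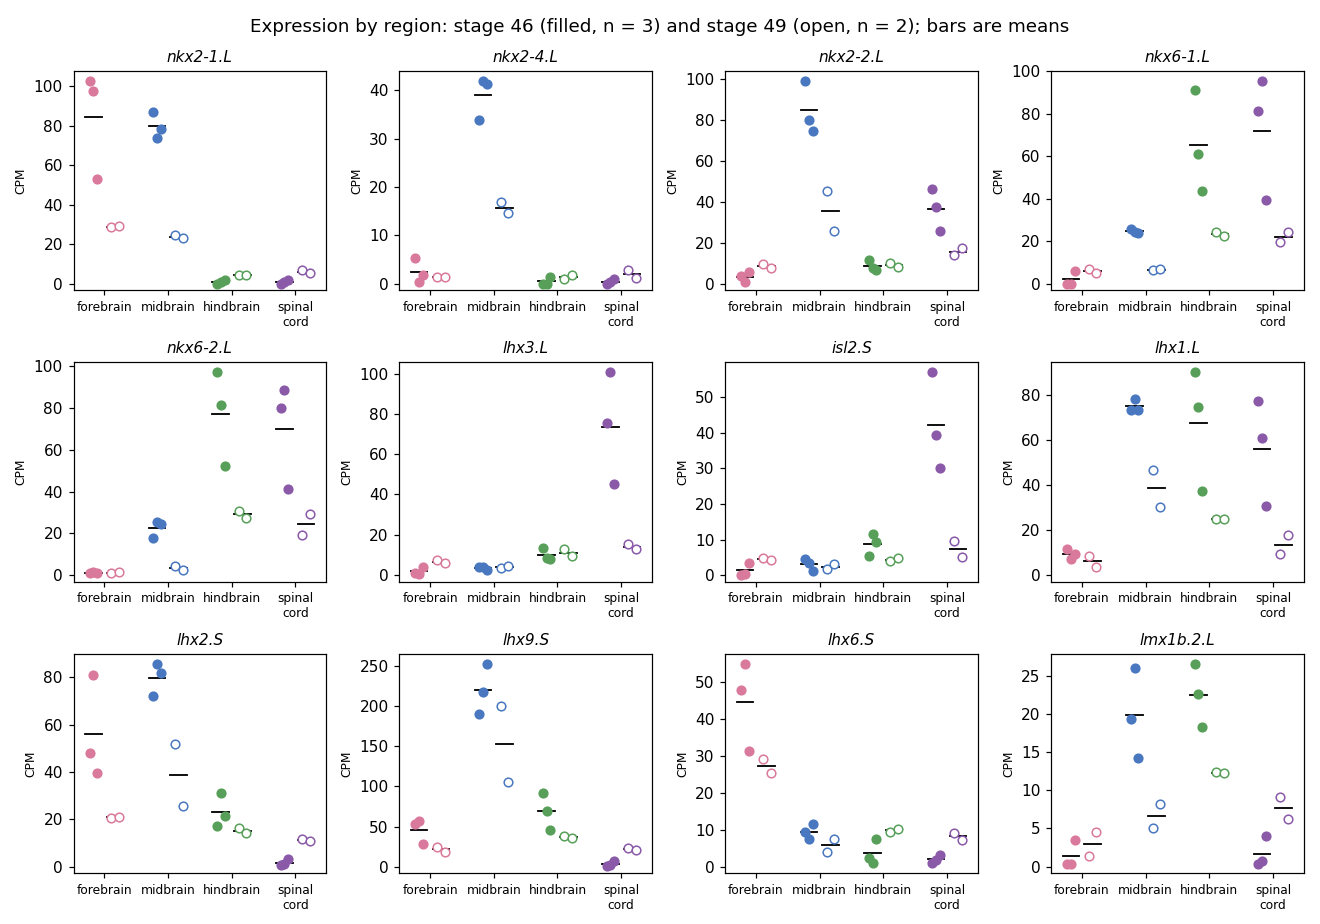
CPM (y axis) of 12 rows by region (x axis), with each of the 3 samples of stage 46 as a filled point, each of the 2 samples of stage 49 as an open point and group means as bars. The nkx6 rows are high in hindbrain and spinal cord, lhx3.L and isl2.S in the spinal cord, lhx6.S in the forebrain and nkx2-4.L in the midbrain, and the differences are smaller at stage 49.

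Of the nkx1 genes, known from the caudal neural tube, nkx1-1.S was at 13.1, 8.29 and 7.82 CPM in the hindbrain and 13.3, 14.2 and 10.1 CPM in the spinal cord at stage 46. It was at 1.62, 0.126 and 0.776 CPM in the midbrain and 0, 0 and 3.54 CPM in the forebrain. The spinal cord lay above midbrain and forebrain without overlap, yet no pair was called with all libraries (from midbrain to spinal cord a log2 fold change of 3.92, edgeR adjusted p = 0.0614). Without the 3 libraries this difference was 3.98 (edgeR adjusted p = 4.43e-05). The row nkx1-2.L was at 4.26 CPM or lower in every stage 46 sample, and nkx6-3.L at 3.28 CPM or lower.

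The lhx1 and lhx5 genes, close relatives that mark inhibitory and other interneurons along the neural tube in mouse, were called between regions for lhx1 only. In the forebrain lhx1.L was at 11.8, 7.2 and 9.21 CPM and lhx1.S at 14.5, 12.3 and 7.08 CPM. In the midbrain lhx1.L was at 73.5, 78.1 and 73.3 CPM and lhx1.S at 85.3, 85.7 and 96.5 CPM. Hindbrain and spinal cord ranged from 30.5 to 90.2 CPM for lhx1.L and from 45.5 to 97.0 CPM for lhx1.S. Both regions overlapped the midbrain for lhx1.L, and the hindbrain did for lhx1.S, while the spinal cord values of lhx1.S lay below it. Every region caudal to the forebrain was called higher than it for both copies, for example by 2.90 ± 0.33 (SE), edgeR adjusted p = 5.47e-05 for lhx1.L and 2.89 ± 0.27 (SE), edgeR adjusted p = 4.92e-06 for lhx1.S from forebrain to midbrain. For lhx5, by contrast, no pair was called: lhx5.L ranged from 34.7 to 102 CPM and lhx5.S from 52.4 to 122 CPM over the 12 samples. From forebrain to midbrain lhx5.L differed by 0.86 ± 0.25 (SE), edgeR adjusted p = 0.0936. The log2 ratio of lhx5.L to lhx5.S was -0.89 ± 0.09 (SD, n = 3) in the spinal cord and between -0.48 ± 0.26 (SD, n = 3) and -0.15 ± 0.07 (SD, n = 3) in the other 3 regions.

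The lhx2 and lhx9 genes, which mark the developing forebrain, eye and dorsal midbrain and, in mouse, the most dorsal interneurons of the spinal cord, were lowest in the spinal cord. There lhx2.L was at 0, 1.48 and 4.26 CPM, lhx2.S at 0.781, 1.04 and 3.36 CPM and lhx9.S at 1.25, 1.77 and 6.95 CPM, in each case highest in replicate 3, 1 of the 3 libraries. In the forebrain lhx2.L was at 79.8, 70.2 and 36.8 CPM and in the midbrain at 57.6, 73.9 and 67.6 CPM. Its hindbrain values, 21.6, 31.3 and 17.8 CPM, lay between those and the spinal cord. The same order held for lhx2.S, at 47.9, 80.7 and 39.4 CPM in the forebrain, 72, 85.7 and 81.7 CPM in the midbrain and 17.2, 30.9 and 21.6 CPM in the hindbrain. The spinal cord did not overlap any other region. From forebrain to spinal cord the log2 fold change was -5.15 ± 0.64 (SE), edgeR adjusted p = 1.60e-04 for lhx2.L and -5.13 ± 0.44 (SE), edgeR adjusted p = 3.62e-07 for lhx2.S. Without the 3 libraries these were -6.63 and -6.15.

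In the midbrain lhx9.S was at 190.5, 218 and 253 CPM, above its hindbrain values of 91.3, 69.9 and 45.2 CPM and its forebrain values of 52.8, 56.6 and 28.8 CPM. From forebrain to midbrain it rose by 2.18 ± 0.41 (SE), edgeR adjusted p = 0.00693, which fell to 1.99 and so just below the fold threshold without the 3 libraries (edgeR adjusted p = 3.58e-07). From midbrain to spinal cord it fell by 6.05 ± 0.52 (SE), edgeR adjusted p = 1.11e-06, and the spinal cord overlapped no other region.

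Motor neurons are specified by lhx3 with isl1, and V2 interneurons by lhx3 without it, as worked out in chick and mouse. These genes were highest in the spinal cord. At stage 46 lhx3.L was at 75.3, 101 and 45.1 CPM in the spinal cord and 13.6, 8.66 and 7.82 CPM in the hindbrain. It was at 3.82, 3.92 and 2.33 CPM in the midbrain and 0.865, 0.758 and 4.01 CPM in the forebrain. The spinal cord did not overlap any other region. From hindbrain to spinal cord lhx3.L rose by 2.84 ± 0.43 (SE), edgeR adjusted p = 0.00108, and from forebrain to spinal cord by 5.37 ± 0.53 (SE), edgeR adjusted p = 5.25e-06. The other copy, lhx3.S, was at 29.2, 41.6 and 18.4 CPM in the spinal cord, 6.72, 5.69 and 10.2 CPM in the hindbrain, 1.5, 0.505 and 1.66 CPM in the midbrain and 0.346, 0 and 6.38 CPM in the forebrain. It was called from midbrain to spinal cord (4.61, SE 1.15, edgeR adjusted p = 0.0281), which 7 of 19 other settings lost, and, without the 3 libraries, in each of the 6 pairs, where the forebrain had 2 counts left.

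Of the isl genes, isl2.S was at 57, 39.5 and 30.1 CPM in the spinal cord, 5.31, 11.5 and 9.24 CPM in the hindbrain, 4.63, 3.54 and 1.11 CPM in the midbrain and 0.173, 0.379 and 3.54 CPM in the forebrain. It rose by 3.82 ± 0.74 (SE), edgeR adjusted p = 0.00561 from midbrain to spinal cord. Its relative isl1.L, used in many neuron types, was also highest in the spinal cord, at 59.5, 59.3 and 33.4 CPM, and differed less: 19, 17.3 and 17.2 CPM in the forebrain, 29.3, 24.3 and 23.2 CPM in the midbrain and 12.9, 17.8 and 9.71 CPM in the hindbrain. Its log2 fold changes toward the spinal cord of 1.04 to 1.87 had edgeR adjusted p-values between 1.29e-04 and 0.00558 but stayed below the fold threshold. Sensory neurons of the dorsal root ganglia also use isl1 and isl2, and the sensory ganglion and neural crest markers were highest in the same samples (above), so the part of ganglia left on the cord in the isl values was not tested. Pituitary cells use lhx3 too, and the midbrain samples, where the pituitary markers were high, had lhx3.L at 3.92 CPM or lower. The part of pituitary tissue in those values was not tested.

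In mouse, lhx6 and lhx8 act downstream of Nkx2-1 in neurons of the ventral telencephalon. Here both were highest in the forebrain. At stage 46 lhx6.S was at 47.8, 55 and 31.4 CPM in the forebrain, 9.48, 7.45 and 11.5 CPM in the midbrain, 2.48, 1.11 and 7.58 CPM in the hindbrain and 0.938, 1.77 and 3.14 CPM in the spinal cord. The copy lhx6.L was at 25.6, 23.2 and 13 CPM in the forebrain and at 5.32 CPM or lower in all other samples. The forebrain overlapped no other region for either copy. From forebrain to spinal cord lhx6.S fell by 4.57 ± 0.61 (SE), edgeR adjusted p = 1.84e-04 and lhx6.L fell by 4.10 ± 0.78 (SE), edgeR adjusted p = 0.00185. The drop from forebrain to midbrain was smaller (-2.32, SE 0.52, edgeR adjusted p = 0.0294 for lhx6.S, -2.75, SE 0.70, edgeR adjusted p = 0.0486 for lhx6.L), and 7 of 19 other settings for lhx6.S and 9 for lhx6.L lost that call.

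For lhx8 the forebrain values were 22.5, 12.3 and 13.9 CPM for lhx8.L and 23.9, 16 and 9.68 CPM for lhx8.S. In the hindbrain they were 0, 0 and 5.45 CPM for lhx8.L and 0, 0 and 1.66 CPM for lhx8.S. All the hindbrain reads came from replicate 3, and no pair was called with all libraries (from forebrain to hindbrain -5.04, SE 1.43, edgeR adjusted p = 0.0996 for lhx8.S). Against a floor of 3 reads over hindbrain replicates 1 and 2, lhx8.L was at least 75.9-fold and lhx8.S at least 88.6-fold higher in forebrain replicates 1 and 2, and both copies were called without the 3 libraries.

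The lmx1 genes mark the roof plate and the dopaminergic neurons of the ventral midbrain, and lmx1b also serotonergic neurons of the hindbrain. At stage 46 lmx1b.2.L was at 19.3, 26 and 14.2 CPM in the midbrain and 26.5, 22.5 and 18.2 CPM in the hindbrain. In the forebrain it was at 0.346, 0.379 and 3.54 CPM and in the spinal cord at 0.313, 0.74 and 4.04 CPM. The inner regions overlapped each other and lay above both outer ones in every sample. From forebrain to hindbrain it rose by 4.07 ± 0.94 (SE), edgeR adjusted p = 0.0394, and from hindbrain to spinal cord it fell by 3.81 ± 0.91 (SE), edgeR adjusted p = 0.0398. Each of these calls was lost in 9 of 19 other settings, most of them fits with 1 library fewer, and both grew without the 3 libraries, to 6.01 and -5.52. The row lmx1b.1.S was at 4.33, 4.55 and 7.56 CPM in the forebrain, 11.7, 13.3 and 11.1 CPM in the midbrain, 24.6, 28.7 and 20.1 CPM in the hindbrain and 16.4, 21.9 and 14.8 CPM in the spinal cord, and rose by 2.14 ± 0.30 (SE), edgeR adjusted p = 2.43e-04 from forebrain to hindbrain. With all libraries the lmx1a rows were not called, at 2.23 to 22.8 CPM for lmx1a.L, with the highest value in spinal cord replicate 1, and 4.25 to 12.9 CPM for lmx1a.S. Without the 3 libraries lmx1a.L was called in at least 1 pair.

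Of the Ldb cofactors, only ldb2.S was called. Over the 12 stage 46 samples ldb1.L ranged from 131 to 333 CPM and ldb1.S from 96.2 to 214 CPM, with no call in any pair and the lowest values in the 3 libraries. For ldb2.S the values were 39.5, 39.4 and 38.2 CPM in the midbrain, 28.5, 22 and 17.8 CPM in the hindbrain, 19, 24 and 10.9 CPM in the forebrain and 8.59, 11.8 and 6.06 CPM in the spinal cord. From midbrain to spinal cord it fell by 2.08 ± 0.26 (SE), edgeR adjusted p = 3.26e-05, and it fell by 1.94, just below the fold threshold, without the 3 libraries. Of the other LIM cofactor genes listed for comparison (lmo, ssbp and rlim rows, 12 tested), 0 were called between regions at stage 46, at stage 49 or between midbrain stages, by edgeR or by DESeq2. At an unadjusted p below 0.05 in at least 1 pair, edgeR gave 4, 5 and 9 of the 12 in these comparisons. How many of all genes reach this limit was not counted, so these numbers are not a result about the cofactors.

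Genes that act beside these factors were also counted from lists. Of 40 tested rows of the Hedgehog pathway and of dorsal or ventral progenitor genes, 11 were called at stage 46: all 11 toward a more caudal region and 1 of them, pax7.L, also toward a more rostral one. The 4 called rows with the highest mean CPM, irx3.S, pax3.S, pax3.L and pax7.L, are genes of the dorsal or intermediate neural tube. The dorsal gene pax3.S was at 1.14 to 8.74 CPM in the forebrain and 25.3 to 69.4 CPM in the other 3 regions, and irx3.S was at 0.884 to 2.60 CPM in the forebrain and 35.3 to 77.3 CPM elsewhere. The ligand shh.L, chosen here after its values were seen, was at 1.77 to 4.72 CPM in the forebrain, at most 29.6 CPM in the midbrain and 37.1 CPM in the spinal cord, and was called higher in both than in the forebrain. The notochord also makes this ligand, notochord markers were highest in the same spinal cord samples (above), and the part of notochord left on the cord was not tested. From forebrain to spinal cord the median log2 fold change of this list was 1.04, beside -0.12 for all genes and -0.08 for the 42 nkx, LIM and ldb rows. Of 26 tested rows that mark classes of ventral neurons, 17 were called, 16 toward a more caudal region and 4 toward a more rostral one. The acetylcholine transporter slc18a3.S, a marker of cholinergic neurons such as motor neurons, was at 106 to 207 CPM in the spinal cord, 20.8 to 44.1 CPM in the hindbrain, 4.88 to 9.71 CPM in the midbrain and 2.91 CPM or lower in the forebrain, the same order of regions as lhx3.L and isl2.S. The V1 interneuron gene prdm12.L went the other way, with 37.5 to 74.6 CPM in the forebrain and 2.03 to 7.10 CPM in the spinal cord. A different order was seen for tal1.S, next after slc18a3.S by mean CPM in this list. It rose most from forebrain to midbrain (4.69), beside 3.57 to the hindbrain and 3.87 to the spinal cord. Of the other called rows, tal1.L, gata2.L, gata2.S, gata3.S, sox14.L and sox14.S also rose most to the midbrain, by 3.93 to 6.27. In contrast, en1.L rose most to the hindbrain (5.89) and slc18a3.L to the spinal cord (6.36).

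The same 4 regions at stage 49 came from other samples, 2 per region, and show how far these differences were seen again 1 sampled stage later. Of 41 rows tested, 5 were called in at least 1 pair, which is 12.2% beside 0.755% of 35609 genes: lhx2.L, lhx9.S, nkx2-1.L, nkx6-2.L and nkx6-2.S. All 5 had been called at stage 46. Calls toward the more caudal region were made for 3 rows (0.323% of all genes) and toward the more rostral one for 3 (0.491%). By pair they numbered 1 between midbrain and forebrain (0.146% of all genes), 2 between hindbrain and forebrain (0.126%), 3 between spinal cord and forebrain (0.455%), 2 between hindbrain and midbrain (0.0505%), 3 between spinal cord and midbrain (0.416%) and 0 between spinal cord and hindbrain (0.0112%), where DESeq2 also called 0 and edgeR gave 4 rows at an unadjusted p below 0.05. How many of all genes reach that last limit was not counted. Of the 60 combinations of row and pair called at stage 46, 57 had the same direction at stage 49, 12 of them with an adjusted p below 0.05, and 9 were called again. The difference was larger at stage 46 in 58 of the 60, with a median size of 4.10 on the log2 scale against 1.68 at stage 49. These combinations were chosen for a log2 fold change above 2 at stage 46, a choice that itself favours the larger size at that stage, so the sizes are a description. Such counts were not made over all genes called at stage 46, so 57 of 60 is not shown to be particular to these rows. The sums of region markers also lay closer together at stage 49 (above).

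**Figure D4:**
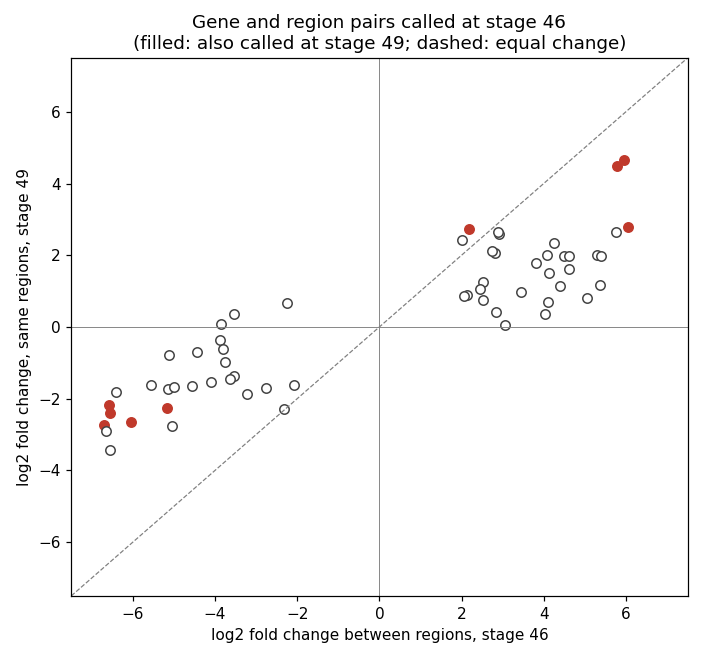
Each point is 1 of the 60 combinations of row and region pair called at stage 46, with its log2 fold change at stage 46 on the x axis and at stage 49 on the y axis. Red points (9) were also called at stage 49, the dashed line marks equal change, and 58 points lie nearer to 0 at stage 49 than at stage 46. Choosing the points by their size at stage 46 favours this, and in 57 of the 60 the sign was the same at both stages. Such counts were not made over all genes.

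In the rostral regions nkx2-1.L was at 28.8 and 28.9 CPM in the forebrain and 24.6 and 23 CPM in the midbrain, below every value of stage 46, and in the caudal ones at 4.23 and 4.26 CPM in the hindbrain and 6.99 and 5.17 CPM in the spinal cord, above every value of stage 46. From forebrain to hindbrain it fell by 2.75 ± 0.32 (SE), edgeR adjusted p = 0.0146. For nkx6-2.L the values were 0.864 and 1.38 CPM in the forebrain, 4.24 and 2.63 CPM in the midbrain, 30.6 and 27.6 CPM in the hindbrain and 19.2 and 29.5 CPM in the spinal cord. It rose by 4.65 ± 0.45 (SE), edgeR adjusted p = 0.00842 from forebrain to hindbrain, the largest log2 fold change of a called row at this stage, while nkx6-2.S rose by 2.79 ± 0.50 (SE), edgeR adjusted p = 0.0453 from forebrain to spinal cord. In the midbrain lhx9.S was at 200.5 and 106 CPM, in the forebrain at 25 and 18.6 CPM, in the hindbrain at 38.7 and 35.8 CPM and in the spinal cord at 22.8 and 20.9 CPM. It rose by 2.74 ± 0.40 (SE), edgeR adjusted p = 0.0357 from forebrain to midbrain. From midbrain to spinal cord lhx2.L fell by 2.25 ± 0.31 (SE), edgeR adjusted p = 0.0265, from 44 and 28.7 to 6.99 and 6.67 CPM.

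Rows that were restricted at stage 46 but not called at stage 49 included lhx3.L, at 15.5 and 12.9 CPM in the spinal cord, 13 and 9.38 CPM in the hindbrain, 3.36 and 4.63 CPM in the midbrain and 7.49 and 5.97 CPM in the forebrain, and isl2.S, at 9.73 and 5.17 CPM in the spinal cord and 1.61 to 4.89 CPM elsewhere. From midbrain to spinal cord lhx3.L differed by 1.97 ± 0.42 (SE), edgeR adjusted p = 0.0738. The forebrain gene lhx6.S was at 29.1 and 25.3 CPM in the forebrain and 3.95 to 10.2 CPM elsewhere, a difference from forebrain to midbrain of -2.30 ± 0.38 (SE), edgeR adjusted p = 0.0707. The row nkx2-4.L was at 17 and 14.5 CPM in the midbrain samples and 0.976 to 2.74 CPM elsewhere. From midbrain to spinal cord it differed by -2.91 ± 0.68 (SE), edgeR adjusted p = 0.0967. The 7 libraries with reads on silent genes hold all of these samples except midbrain replicate 1, and the 2 midbrain samples differ for rows that are low elsewhere, as in nkx1-1.S (0.877 and 5.1 CPM) and lhx3.S (0.731 and 8.96 CPM). With those 7 libraries alone, 8 rows were called (1.26% of all genes), 4 of them among the 5: lhx2.L was lost, and lhx1.L, lhx1.S, nkx2-4.L and nkx6-1.L were gained. The count at this stage moved much with single libraries, from 0 when forebrain replicate 1 or 2 was left out (0.0431% and 0.0378% of all genes) to 31 of 43 without midbrain replicate 2. That last fit called 37.5% of all 37144 genes, so its count says little about these rows. The count was 1 without hindbrain replicate 1 or 2 (0.187% and 0.208%), 3 and 2 without spinal cord replicates 1 and 2 (0.39% and 0.205%), and 8 without midbrain replicate 1 (1.26%). None of the 11 calls by row and pair was kept in all 14 other settings.

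The change between stages was also tested directly, as the difference between a region pair at stage 49 and the same pair at stage 46 in 1 fit of all 20 samples. It passed an adjusted p below 0.05 for 5 of 45 rows in at least 1 pair (11.1%, beside 1.7% of 42559 genes), for 3 of them with a positive difference (0.11% of all genes) and for 2 with a negative one (1.59%). These were lhx2.S, lhx3.L, lhx9.S and nkx2-1.L, each for spinal cord against forebrain and against midbrain, and nkx2-2.S for spinal cord against forebrain. In all of them the contrast was smaller at stage 49. For lhx2.S the log2 fold change from forebrain to spinal cord was -5.13 at stage 46 and -0.79 at stage 49, and the tested difference was 4.10 ± 0.65 (SE), edgeR adjusted p = 0.00493. The median of all genes for the difference between stages was -0.10 for spinal cord against forebrain and -0.86 for spinal cord against midbrain, beside which lhx3.L in the latter pair differed by -2.86 ± 0.68 (SE), edgeR adjusted p = 0.0405. Without the 3 libraries of stage 46, 20 of 45 rows passed (8.22% of all genes), all 5 among them. The count was 12 without forebrain replicate 3 (2.92% of all genes), 8 without spinal cord replicate 3 (3.05%) and 3 without spinal cord replicate 2 (0.653%) of stage 46. It was 1 and 3 without forebrain replicates 1 and 2 (0.325% and 0.348%) and 1 and 2 without spinal cord replicates 1 and 2 (0.0762% and 0.339%) of stage 49. None of the 9 combinations passed in all 27 other settings, and lhx3.L for spinal cord against midbrain failed in 16 of them and lhx9.S in 13.

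To follow these genes over time in 1 region, the midbrain was compared between stages 44, 46, 55 and 61 in 6 pairs. Of 32 rows tested, 11 were called in at least 1 pair (34.4%, beside 10.8% of 26681 genes), and all 11 were lower at the later stage (6.08% of all genes), while 0 were higher (4.92% of all genes). At an adjusted p below 0.05 with no fold threshold, 25 of the 32 rows fell in at least 1 pair (26.9% of all genes) and 1 row, ldb2.S, rose (26.1% of all genes). DESeq2 called 12 rows lower and 0 higher, and edgeR gave 1 row higher at an unadjusted p below 0.05. Calls numbered 10 from stage 44 to 61 (7.91% of all genes), 9 from stage 46 to 61 (7.83%), 5 from stage 55 to 61 (3.33%) and 3 from stage 44 to 55 (2.61%). From stage 46 to 55 there were 0 (2.29% of all genes), with 1 by DESeq2 and 19 at an unadjusted p below 0.05, and from stage 44 to 46 there were 0 (0.00375%), with 0 by DESeq2 and 0 at an unadjusted p below 0.05. How many of all genes reach the unadjusted limit was not counted. Without the fold threshold, 24 rows fell from stage 46 to 61 (19.9% of all genes) and 1 rose (18%), 24 fell from stage 44 to 61 (18.9%) and 1 rose (17.4%), and 11 fell from stage 46 to 55 (8.16%) and 1 rose (8.41%). The median log2 fold change of the 32 rows was -0.71 from stage 46 to 55 and -1.56 from stage 46 to 61, against 0.01 and -0.00062 for all genes, and 30 of 32 rows were lower at stage 61 than at stage 46. The 13 rows that did not pass the filter were nkx1-2.L, nkx6-3.L and the 11 rows of nkx2-3, nkx2-5, nkx2-6 and nkx3.

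**Figure D5:**
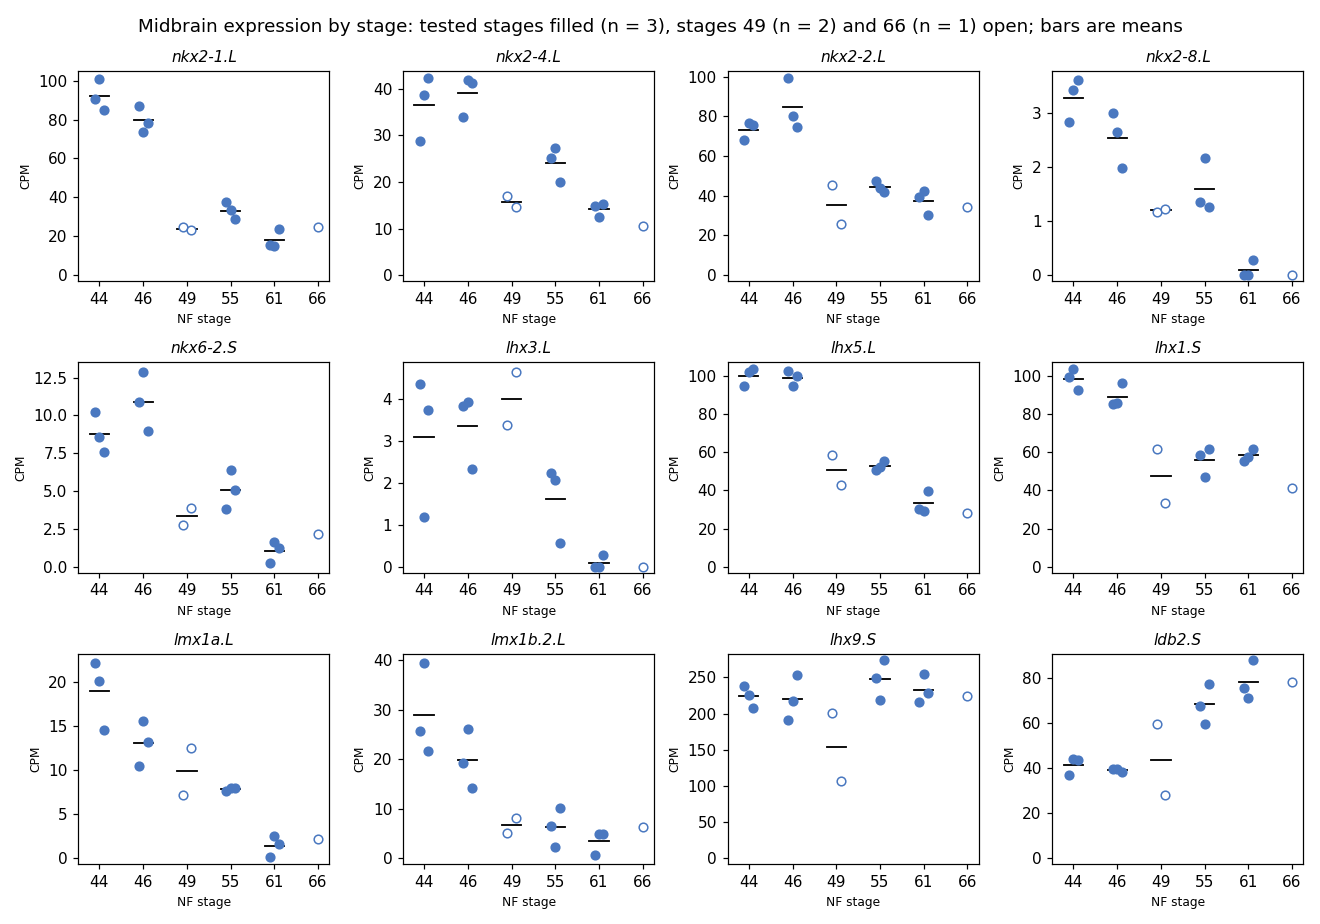
CPM (y axis) of 12 rows in the midbrain by NF stage (x axis, stages evenly spaced), with the samples of stages 44, 46, 55 and 61 as filled points, those of stages 49 (2) and 66 (1), which entered no test, as open points, and means as bars. Of the rows shown, ldb2.S is higher and lhx9.S about level at stage 61, and the other rows are lower at stage 61 than at stage 46.

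Among the nkx genes, nkx2-1.L went from 90.8, 101 and 84.9 CPM at stage 44 and 86.7, 73.8 and 78.3 CPM at stage 46 to 37.5, 33.3 and 28.6 CPM at stage 55 and 15.7, 14.9 and 23.5 CPM at stage 61. Stages 46, 55 and 61 did not overlap one another. The 2 samples of stage 49, which entered no test, lay below those of stage 55, at 24.6 and 23 CPM. All 45 rows together were also low in these 2 samples, at 1072 and 735 CPM. Their sum was 1663 to 1741 CPM at stage 46 and 1204 to 1461 CPM at stage 55. Replicate 2 of stage 49 is among the libraries with reads on silent genes. From stage 46 to 61 nkx2-1.L fell by 2.12 ± 0.18 (SE), edgeR adjusted p = 1.20e-08. The stage 66 sample was at 25 CPM. Its relatives nkx2-4.L and nkx2-4.S had log2 fold changes of -1.44 and -1.56 (edgeR adjusted p = 1.10e-05 and 3.97e-06), below the fold threshold. Pituitary markers in these samples summed to 260 to 395 CPM at stage 46, 48.0 to 1673 CPM at stage 55 and 12.6 to 41.8 CPM at stage 61, and the part of pituitary tissue in the nkx2-1 and nkx2-4 levels was not tested.

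The ventral genes nkx2-2 and nkx6 also fell. From stage 46 to 61 nkx2-2.L fell by 1.16 ± 0.16 (SE), edgeR adjusted p = 9.47e-06 and nkx6-1.L fell by 1.82 ± 0.36 (SE), edgeR adjusted p = 4.53e-04, both below the fold threshold. The copy nkx6-2.S went from 10.9, 12.9 and 8.98 CPM at stage 46 to 3.83, 6.41 and 5.06 CPM at stage 55 and 0.257, 1.65 and 1.24 CPM at stage 61, and was called (-3.38, SE 0.46, edgeR adjusted p = 7.17e-06). Its partner nkx6-2.L fell less, from 17.9, 25.6 and 24.4 to 4.63, 10.3 and 5.5 CPM (-1.73, SE 0.28, edgeR adjusted p = 5.79e-05), and the log2 ratio of nkx6-2.L to nkx6-2.S was 1.05 ± 0.36 (SD) over the 3 samples of stage 46 and 2.33 ± 0.34 (SD) over the 2 samples of stage 61 with enough reads for a ratio. At stage 49 nkx6-2.L was at 4.24 and 2.63 CPM, below its stage 55 values of 13.6, 13.3 and 15.9 CPM. The summed CPM of all 45 rows was also lower in the stage 49 samples (above). Low rows that were called were nkx2-8.L, with 65 counts in 3 samples at stage 46 and 2 at stage 61 (a ratio of 26.8, with a 95% interval of 7.12 to 226 that covers counting error only), and nkx1-1.S, with 49 counts at stage 44 and 2 at stage 61 (a ratio of 21.6, interval 5.67 to 183), a call that 3 of 19 other settings lost.

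Of the LIM genes, 3 of the 4 lmx1 rows were called. The copy lmx1a.L went from 22.1, 20.1 and 14.6 CPM at stage 44 and 10.4, 15.5 and 13.2 CPM at stage 46 to 7.67, 7.94 and 7.93 CPM at stage 55 and 0.129, 2.48 and 1.65 CPM at stage 61. The copy lmx1a.S went from 13.9, 15.1 and 11.3 CPM and 6.94, 12.9 and 8.64 CPM to 1.98, 3.04 and 3.68 CPM and 0.901, 0.165 and 0.55 CPM at the same stages. For both copies stage 61 lay below every earlier sample. From stage 46 to 61 lmx1a.L fell by 3.22 ± 0.46 (SE), edgeR adjusted p = 1.20e-05 and lmx1a.S fell by 4.03 ± 0.49 (SE), edgeR adjusted p = 1.41e-06. For lmx1b.2.L the values were 25.7, 39.4 and 21.7 CPM at stage 44, 19.3, 26 and 14.2 CPM at stage 46, 6.43, 2.17 and 10.1 CPM at stage 55 and 0.643, 4.96 and 4.95 CPM at stage 61, and from stage 44 to 61 it fell by 3.03 ± 0.59 (SE), edgeR adjusted p = 0.00127. The row lmx1b.1.S fell by 1.54 ± 0.35 (SE), edgeR adjusted p = 0.00155, below the fold threshold. The single stage 66 sample had 2.16 CPM of lmx1a.L, 4.49 CPM of lmx1a.S and 6.29 CPM of lmx1b.2.L.

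Further LIM rows called in the midbrain were at low levels there. The copy lhx8.S fell from 7.52, 8.46 and 8.15 CPM at stage 44 to 1.93, 2.32 and 0.962 CPM at stage 61 (-2.18, SE 0.43, edgeR adjusted p = 4.80e-04), a call that was lost without stage 61 replicate 3 and when all 30 samples were fitted together, and lhx8.L was at 8.75 CPM or lower in the tested midbrain samples with no call. The lhx3 and isl2 rows were low from the start. For lhx3.L there were 85 counts in 3 samples at stage 46 and 2 at stage 61 (a ratio of 35.0, with a 95% interval of 9.40 to 294 for counting error). For lhx3.S there were 32 and 1 (a ratio of 26.4, interval 4.41 to 1074). Between the same stages isl2.S fell by 2.55 ± 0.86 (SE), edgeR adjusted p = 0.0228. The call was lost in 7 of 19 other settings for lhx3.S and in 3 for isl2.S, and in none for lhx3.L. Pituitary markers were also lower at stage 61 than at stage 46 (above), and the part of pituitary tissue in the lhx3 values was not tested. For isl1.L no pair was called, at 29.3, 24.3 and 23.2 CPM at stage 46 and 17, 17 and 25.6 CPM at stage 61 (-0.34, SE 0.20, edgeR adjusted p = 0.194).

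The interneuron genes lhx1 and lhx5 also fell. From stage 46 to 61 lhx5.L went from 102, 94.9 and 99.7 to 30.4, 29.3 and 39.7 CPM (-1.56, SE 0.15, edgeR adjusted p = 5.14e-08), while lhx1.S went from 85.3, 85.7 and 96.5 to 55.6, 57.8 and 62 CPM (-0.59, SE 0.15, edgeR adjusted p = 0.00294). Both were below the fold threshold. Of the pair lhx2 and lhx9, lhx2.S fell by 1.16 ± 0.20 (SE), edgeR adjusted p = 1.20e-04, whereas lhx9.S was at 238, 225 and 208 CPM at stage 44, 190.5, 218 and 253 CPM at stage 46, 249.9, 219 and 274 CPM at stage 55, 216, 255 and 228 CPM at stage 61 and 224 CPM at stage 66. From stage 46 to 61 lhx9.S differed by 0.10 ± 0.14 (SE), edgeR adjusted p = 0.611. The cofactor ldb2.S rose from 39.5, 39.4 and 38.2 CPM at stage 46 to 67.8, 59.7 and 77.5 CPM at stage 55 and 75.7, 71.3 and 87.8 CPM at stage 61 (1.02, SE 0.16, edgeR adjusted p = 2.53e-05), without overlap of stage 46 and the later stages and below the fold threshold, and ldb1.L and ldb1.S did not pass in any pair. Neuron markers (6 rows) were higher at the later stages, with 1757 to 1922 CPM at stage 46 and 2519 to 3022 CPM at stage 61, and the part of a changing share of cells in these levels was not tested.

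The comparison lists in the midbrain went the same way for progenitor genes. Of 38 tested rows of the Hedgehog and progenitor list, 11 were called, all lower at the later stage, with a median log2 fold change from stage 46 to 61 of -1.55 beside -1.56 for the nkx, LIM and ldb rows. Among them the Hedgehog signal transducer smo.L, called from stage 44 to 61 only, went from 61.2 to 77.2 CPM at stage 44 to 13.3 to 17.2 CPM at stage 61. From stage 46 to 61 the transcriptional effector gli3.S went from 39.2 to 43.2 CPM to 6.18 to 11.1 CPM, and pax3.L from 42.8 to 60.5 CPM to 3.97 to 12.6 CPM. For the 22 tested rows of ventral neuron classes the median from stage 46 to 61 was -0.64.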

How the data were processed

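Read counts per gene came from 30 RNA-seq libraries of X. laevis tadpole brain. The authors deposited whole-number counts: per their methods and the processing notes, amplified RNA was sequenced as single-end reads, aligned with STAR 2.5.2a to the v9.2 assembly and counted with HTSeq 0.11.1, with DESeq2 1.22.2 used downstream. The strand setting and the handling of reads that match several genes are not given in the sources used here, so .L and .S copies may share reads.

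Counts were tested with edgeR 4.0.16 in R 4.3.3 (TMM scaling, filterByExpr at 10 counts per library and 15 in all, robust quasi-likelihood fits) over all genes that passed the filter, with 6 pairwise contrasts per comparison. The thresholds for a call (adjusted p of 0.05, log2 fold change of 2) were the study's; the difference between stages had no fold threshold. SE is the log2 fold change divided by the root of F. Scripts were tested on simulated data. Alternatives were DESeq2 1.42.0, another normalization, no filter, all samples in one fit, a replicate block, a fold threshold of 1, summed copies, each library left out and the 3 libraries that stood apart left out together. Midbrain counts without a fold threshold were added after seeing the data.

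Rows called in any pair are named, with values per sample where a group mean reached 5 CPM, and uncalled rows where a group mean reached 10 CPM or a copy was called. From each comparison list at most 4 called rows are named by highest mean. After their values were seen, shh.L and further called rows of the ventral neuron list were added. Values of a few genes are left out. Members and lists were chosen with earlier results of these data known. All 45 rows matched a RefSeq gene symbol. Depth ranged from 1762544 to 11016124 counts per library; intervals and floors cover counting error only.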

Additional observations from a re-analysis of the deposited data

Results flagged for a closer look

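In 9 combinations of row and region pair the difference between regions itself differed between stages 46 and 49, tested as the stage 49 pair minus the stage 46 pair with edgeR over 20 samples. For spinal cord against forebrain the difference between stages was 4.10 ± 0.65 (SE), edgeR adjusted p = 0.00493 for lhx2.S, 3.71 ± 0.72 (SE), edgeR adjusted p = 0.0152 for lhx9.S and 4.15 ± 0.87 (SE), edgeR adjusted p = 0.026 for nkx2-1.L, rows that were low in the spinal cord at stage 46. It was -4.41 ± 0.73 (SE), edgeR adjusted p = 0.00626 for lhx3.L and -3.59 ± 0.67 (SE), edgeR adjusted p = 0.0127 for nkx2-2.S, rows that were low in the forebrain at stage 46. For spinal cord against midbrain it was 3.57 ± 0.64 (SE), edgeR adjusted p = 0.00924 for lhx2.S, 3.02 ± 0.70 (SE), edgeR adjusted p = 0.0356 for lhx9.S, 4.23 ± 0.86 (SE), edgeR adjusted p = 0.02 for nkx2-1.L and -2.86 ± 0.68 (SE), edgeR adjusted p = 0.0405 for lhx3.L. The log2 fold changes at stages 46 and 49 behind the first pair were -3.87 and 0.09 for lhx9.S, -6.57 and -2.17 for nkx2-1.L, 5.37 and 1.16 for lhx3.L, and 4.11 and 0.71 for nkx2-2.S. The levels of both regions are given for some of these rows. The spinal cord went from 0.781, 1.04 and 3.36 CPM at stage 46 to 11.9 and 10.8 CPM at stage 49 for lhx2.S, while the forebrain went from 47.9, 80.7 and 39.4 to 20.4 and 21.1 CPM. For nkx2-1.L the spinal cord went from 0, 0.887 and 2.02 to 6.99 and 5.17 CPM and the forebrain from 103, 97.5 and 52.9 to 28.8 and 28.9 CPM. For lhx3.L the forebrain went from 0.865, 0.758 and 4.01 to 7.49 and 5.97 CPM and the spinal cord from 75.3, 101 and 45.1 to 15.5 and 12.9 CPM, while the midbrain overlapped between stages, at 3.82, 3.92 and 2.33 and then 3.36 and 4.63 CPM. At stage 49, 7 of 8 libraries had 0.904% to 1.87% of their counts on otherwise silent genes, and the part of such reads in these differences was not tested. The sums of region markers also lay closer together at stage 49 than at stage 46, and the source of this was not tested. In the spinal cord, marker sums at stages 46 and 49 were 1945 to 2365 and 201 to 279 CPM for cartilage and 696 to 1122 and 215 to 397 CPM for notochord. They were 1533 to 2203 and 664 to 1181 CPM for sensory ganglia and neural crest, and 1653 to 2804 and 430 to 879 CPM for neurons. Skeletal muscle sums overlapped. The part of tissue content in these differences was not tested. For spinal cord against midbrain the result was lost in 16 of 27 other settings for lhx3.L and in 13 for lhx9.S.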

How the results depend on the processing

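No direction reversed in any setting. At stage 46, 21 rows were called (5.62% of all genes), and 19 to 27 in the other settings (3.84% to 12.6% where counted) apart from 14 genes for summed copies. The count was 19 to 24 when 1 library was left out (4.23% to 7.31% of all genes). Of 60 combinations of row and pair, 42 were called in every setting. At stage 49 the count of 5 (0.755% of all genes) became 11 with DESeq2 (1.49%, or 1.24% without the filter), 10 without the filter (0.754%), 10 with all 30 samples in one fit (1.32%) and 0 to 31 when 1 library was left out (0.0378% to 37.5% of all genes), where a lone sample of a region is assumed to vary like the others; 0 of 11 combinations were called in every setting. In the midbrain the count of 11 (10.8% of all genes) became 23 with a fold threshold of 1. It was 9 to 12 otherwise (4.64% to 11.3% where counted), with 14 of 27 combinations called in every setting. The share of all genes was not counted for a fold threshold of 1 or for summed copies. For the difference between stages the count of 5 (1.7% of all genes) became 13 with DESeq2 (6.45%, or 5.61% without the filter), 9 with all 30 samples in one fit (1.72%), 20 without the 3 libraries (8.22%) and 1 to 12 when 1 library was left out (0.0762% to 3.05%), with 0 of 9 combinations passing in every setting. The cause of these shifts was not tested. With the replicate block the counts were 26 at stage 46 (9.24% of all genes), 2 at stage 49 (0.295%), 11 in the midbrain (10.4%) and 7 for the difference between stages (3.79%), and calls lost with it included nkx6-1.L from forebrain to hindbrain at stage 46 and lhx3.S from midbrain stage 46 to 61. Same-numbered samples deviated together at stage 46 among forebrain, hindbrain and spinal cord (correlations of 0.704 to 0.770, each with a replicate 3 that stood apart). They did not with the midbrain (-0.011 to 0.003). At stage 49 the correlations were -0.458 to 0.355 and in the midbrain stages -0.028 to 0.017. The numbers are not stated to mark a clutch or a batch, so the main fits had no block. The main fit of stage 46 therefore takes no account of the deviation shared by those regions. The smallest libraries, at stage 49, limit what low rows can show there.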
